A study of Mus musculus with 8 samples.

Results

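Sox10, Egr2, S100b, Mbp, Pmp22, Prx and Mal are genes by which Schwann cells and their myelin are commonly recognised. These 7 genes were taken by name from the 54532 genes of a read count table of mouse first molar enamel organs. Schwann cells are the glia of peripheral nerves, and nerve fibres from the trigeminal ganglion reach the teeth and the oral mucosa. In this lineage the transcription factor Sox10 is present from the neural crest onwards, it switches on Egr2 when a cell starts to myelinate, and Egr2 in turn drives the genes of the myelin sheath. Myelin is a stack of membrane wrapped around the axon and held together by a small set of abundant proteins, among them myelin basic protein and PMP22.

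The enamel organs came from untreated wt pups of the strain C57BL/6 at postnatal day 5 (P5), the secretory stage, and at day 12 (P12), the maturation stage. Each library was a pool from 5 pups, and there were 4 libraries per age, replicates 1, 3, 4 and 5 at P5 and replicates 1 to 4 at P12. The labels call the cells epithelially derived. No cell type was sorted, so a pool holds whatever stayed on the molar after the pulp was cleared, and a lower level in it can mean fewer cells of a type or less RNA per cell, which cannot be told apart. Total counts lay between 16574548 and 22013456. Normalized counts given below are counts divided by the TMM-scaled library size and multiplied by the mean of those sizes, 19006280.

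The stages were visible in the ameloblast genes. Of 5 secretory genes 5 fell, led by Enam, and their sum went from at least 4968092 normalized counts in each P5 library to at most 621688 in each P12 library. Of 6 maturation genes 5 rose, led by Odam, and 1 was not called. The filter on low counts was passed by 1 secretory gene through P5 alone and by 1 maturation gene through P12 alone. RNA of other cells was abundant as well, since the sum of 11 fibroblast, odontoblast and osteoblast genes lay between 912944 and 1240868 over the 8 libraries, above the P12 sum of either ameloblast list.

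The 250 bases before the outermost RefSeq start are shown for Mal, Pmp22 and Egr2, 3 of the 4 members whose libraries did not overlap between the ages, read 5′ to 3′ on the gene's strand, with matches to a CCAAT box in capitals.
Mal, chr2:127656696-127656945 of GRCm38, minus strand: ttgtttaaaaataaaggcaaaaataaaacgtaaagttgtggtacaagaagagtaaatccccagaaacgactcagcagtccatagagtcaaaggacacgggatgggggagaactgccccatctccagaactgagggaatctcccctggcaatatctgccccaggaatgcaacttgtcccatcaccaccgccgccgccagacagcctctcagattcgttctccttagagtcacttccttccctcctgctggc
Pmp22, chr11:63128732-63128981 of GRCm38, plus strand: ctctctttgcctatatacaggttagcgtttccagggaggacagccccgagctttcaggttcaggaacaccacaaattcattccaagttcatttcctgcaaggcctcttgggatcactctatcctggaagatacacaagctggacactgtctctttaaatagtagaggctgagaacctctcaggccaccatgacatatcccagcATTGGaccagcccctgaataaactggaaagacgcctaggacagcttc
Egr2, chr10:67535249-67535498 of GRCm38, plus strand: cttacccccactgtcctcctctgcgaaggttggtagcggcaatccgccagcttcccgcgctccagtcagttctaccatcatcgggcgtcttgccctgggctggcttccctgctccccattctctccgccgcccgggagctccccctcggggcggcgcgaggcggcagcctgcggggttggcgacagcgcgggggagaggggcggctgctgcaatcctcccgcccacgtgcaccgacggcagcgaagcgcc

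The windows differ in base composition, with 50.0% G and C for Mal, 48.8% for Pmp22 and 71.2% for Egr2. Both strands were searched for ACAANG, the core bound by SOX factors, GCGNGGGCG, the core bound by EGR factors, TATAAA and CCAAT. None of the motifs was found in the windows of Mal and Egr2, and the Pmp22 window held 1 CCAAT on the reverse strand, starting 47 bases before the start. Over all 32851 RefSeq windows of this length, 36.3% held the SOX core, 4.7% the EGR core, 12.4% TATAAA and 33.8% CCAAT. RefSeq lists 4 starts for Pmp22 and 5 for Egr2, and the gene counts do not tell which of them was used.

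Of the 7 genes, 6 passed the filter on low counts. Mbp and Mal rose from P5 to P12, Pmp22 fell, and Sox10, Prx and S100b were not called. Egr2 was too low for the filter, although each P12 library lay above each P5 library. Over all 16440 tested genes 57.2% were called, 28.8% higher and 28.4% lower at P12, so 3 calls among 6 tested members are near the background. The ages did not overlap for the 3 called members, against 52.5% of all tested genes. A call means an adjusted p under 0.05, and log2FC is the log2 fold change from P5 to P12.

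**Figure D1:**
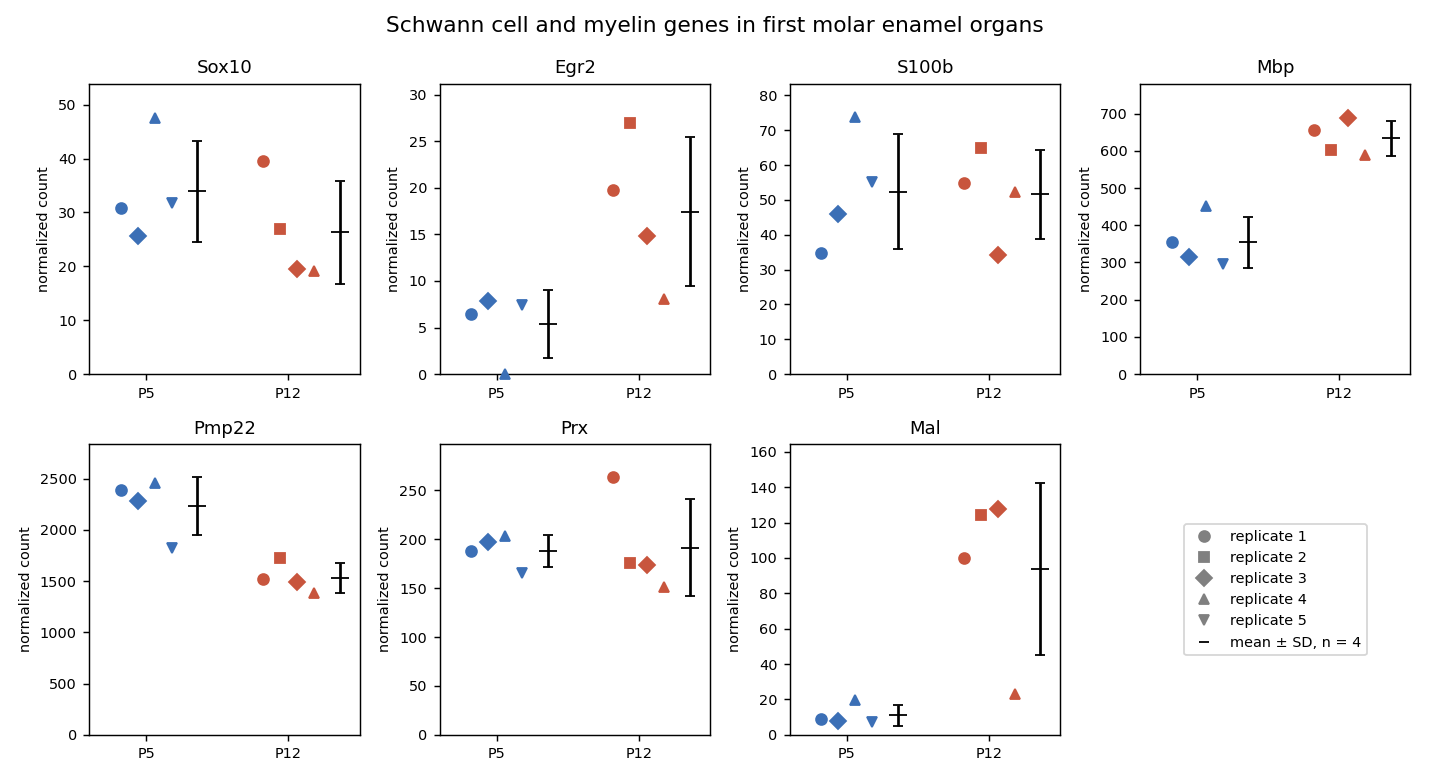
Normalized counts of the 7 genes in each library, with P5 in blue and P12 in red, a symbol per replicate number, and the mean ± SD of 4 libraries as a black bar. Mbp, Mal and Egr2 are higher and Pmp22 is lower in every P12 library, and for Sox10, S100b and Prx the ages overlap.

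Sox10 (ENSMUSG00000033006, chromosome 15 of GRCm38, 79154908 to 79165240, minus strand), the factor that defines the lineage, was a low gene at both ages. Its normalized counts were 30.9, 25.7, 47.5 and 31.8 in P5 replicates 1, 3, 4 and 5, and 39.6, 27.0, 19.5 and 19.1 in P12 replicates 1 to 4. The ages overlapped, with the highest value in P5 replicate 4 and the lowest ones in P12 replicates 3 and 4. The log2FC was -0.34 with a 95% interval of -1.02 to 0.33 (SE 0.31, edgeR adjusted p = 0.36), so that neither direction was resolved.

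Egr2 (ENSMUSG00000037868, chromosome 10, 67535475 to 67542188, plus strand), the zinc finger factor that turns on the myelin program, had counts of 5, 7, 0 and 7 in P5 replicates 1, 3, 4 and 5 and of 27, 32, 16 and 8 in P12 replicates 1 to 4. Its mean normalized count went from 5.42 ± 3.66 to 17.4 ± 8.01 (SD, n = 4), and P12 replicate 4, at 8.03, was barely above the highest P5 library, at 7.83. The 0 in P5 replicate 4 allows up to 3 counts there, or 3.95 normalized counts. The difference on the log2(normalized count + 1) scale was 1.81 (two-sided exact permutation test, p = 0.0286, the smallest that 4 libraries against 4 allow). DESeq2, which does not use the filter, gave a log2FC of 1.67 with an adjusted p of 0.025, and edgeR without the filter gave 1.66 with an adjusted p of 0.022. Without P5 replicate 4, the library at 0, the difference was 1.05. In the 5 edgeR fits without 1 library in which Egr2 passed the filter, its adjusted p was between 0.0095 and 0.056, above the threshold without P5 replicate 1.

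The cofactors of Egr2 had higher counts. Nab1, which binds EGR factors, went from 2410 ± 293 to 2575 ± 224 normalized counts (SD, n = 4; log2FC 0.10, adjusted p = 0.42 from edgeR). Nab2, its paralog, was at 452 ± 16.3 and 351 ± 84.0 (adjusted p = 0.062), with P12 replicate 4 lowest at 232. Of the 10 genes in the list of Egr2 cofactors and related factors, 2 rose, 1 fell, 6 were not called and 1 was too low to test. The largest rise was that of Srebf2, a regulator of sterol synthesis (log2FC 0.35), and the fall was that of Crebbp, a histone acetyltransferase (-0.51).

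S100b (ENSMUSG00000033208, chromosome 10, 76253853 to 76261159, plus strand), a calcium-binding protein of glia, was at 34.7, 45.8, 73.8 and 55.0 normalized counts in P5 replicates 1, 3, 4 and 5 and at 55.0, 65.0, 34.3 and 52.2 in P12 replicates 1 to 4. The ages overlapped almost throughout. The log2FC was -0.02 with a 95% interval of -0.61 to 0.58 (SE 0.27, edgeR adjusted p = 0.97). Other S100 genes did change. In a list of 8 relatives 6 rose, none fell, 1 was not called and 1 was too low to test. Rises made up 28.8% of all tested genes. Examples were S100a6, from 566 ± 57.3 to 8741 ± 1795, and S100a1, from 444 ± 50.2 to 1216 ± 84.0 (SD, n = 4).

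Mbp (ENSMUSG00000041607, chromosome 18, 82475146 to 82585637, plus strand) encodes myelin basic protein, which seals the cytoplasmic faces of the myelin membrane. Its normalized counts were 356, 314, 451 and 295 in P5 replicates 1, 3, 4 and 5 and 656, 602, 689 and 588 in P12 replicates 1 to 4. Every P12 library was above every P5 library, and the P12 libraries lay close together, with a mean of 634 ± 47.1, where the P5 mean was 354 ± 69.3 (SD, n = 4). This was a 1.80-fold rise (log2FC 0.85, SE 0.12, edgeR adjusted p = 1.3e-04). GENCODE M21 lists 13 transcripts for the gene, which include the golli forms that cells outside the nervous system also make, and the gene counts do not separate them from the classic myelin forms.

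Pmp22 (ENSMUSG00000018217, chromosome 11, 63128982 to 63159547, plus strand) encodes a small membrane protein of compact myelin that fibroblasts and epithelia also make. Normalized counts were 2389, 2280, 2457 and 1829 in P5 replicates 1, 3, 4 and 5 and 1518, 1729, 1496 and 1387 in P12 replicates 1 to 4, so that the ages were separate, with P5 replicate 5 closest to P12. It was 1.46-fold lower at P12 (log2FC -0.55, SE 0.10, edgeR adjusted p = 6.3e-04). Under scaling by total count alone the log2FC was -0.17 (adjusted p = 0.17). That scaling shifted the median of all genes to 0.38, and Pmp22 was 0.55 below this median (difference -0.55). Among 6 relatives of Pmp22, the EMP and PERP genes and their kin, 1 rose (Tmem47, log2FC 0.47), 4 were not called and 1 was too low to test. Emp1 was at 4136 ± 405 and 3837 ± 1061 (SD, n = 4) and Perp, a desmosome-associated gene of stratified epithelia, at 13764 ± 690 and 16276 ± 2214 (SD, n = 4).

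Prx (ENSMUSG00000053198, chromosome 7, 27499324 to 27520214, plus strand) encodes periaxin, which ties the outer Schwann cell membrane to the basal lamina. The values were 188, 197, 203 and 165 normalized counts in P5 replicates 1, 3, 4 and 5 and 264, 176, 174 and 152 in P12 replicates 1 to 4. P12 replicate 1 was the highest and P12 replicate 4 the lowest of all libraries. The log2FC was 0.03 with a 95% interval of -0.34 to 0.40 (SE 0.17, edgeR adjusted p = 0.89). Of its exonic bases, 5.38% are shared with Gm15541 on the opposite strand, which had between 5 and 20 counts per library. The exons of the other members overlap no other gene (0.0%).

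Mal (ENSMUSG00000027375, chromosome 2, 127633226 to 127656695, minus strand) encodes a small membrane proteolipid that sorts lipids and proteins in myelin and in the apical membrane of epithelia. Its normalized counts were 9.00, 7.83, 19.8 and 7.41 in P5 replicates 1, 3, 4 and 5 and 99.7, 124, 128 and 23.1 in P12 replicates 1 to 4. In P12 replicate 4 the gene was barely above P5 replicate 4, while the other P12 libraries were far above every P5 library. This was an 8.64-fold rise (log2FC 3.11, SE 0.53, edgeR adjusted p = 4.2e-04). Mal passed the filter through the P12 libraries, and it was below 10 counts in 3 P5 libraries. Without P12 replicate 4 the log2FC was 3.43.

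In its own family Mal did not rise alone. Of 11 MAL and CMTM genes, 8 rose, none fell, 2 were not called and 1 was too low to test. The share of rises over all tested genes was 28.8%. Mall, a MAL-like gene, rose most, from 38.1 ± 9.10 to 191 ± 63.0 (SD, n = 4; log2FC 2.32, edgeR adjusted p = 2.9e-05), and at P12 it was also lowest in replicate 4, at 107. Mal2, which acts in apical transport of epithelial cells, rose from 105 ± 37.3 to 207 ± 15.9 (SD, n = 4) and showed no such drop, with 208 in that library.

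Levels between genes were compared per kilobase of the deposited gene length. That length is 1 value per gene, 8403 bases for Mbp with its 13 transcripts, and the transcripts used may be shorter. Without division by length, Prx ranked above S100b at both ages, and Mal ranked above S100b at P12. Pmp22 was the most abundant member at both ages, at 951 ± 120 normalized counts per kilobase at P5 and 651 ± 60.8 at P12 (SD, n = 4), and did not overlap the next gene. At P5 it was followed by Mbp at 42.1 ± 8.25, S100b at 35.3 ± 11.2 and Prx at 33.7 ± 2.97, whose libraries overlapped each neighbour. Sox10 at 11.1 ± 3.08, Mal at 3.96 ± 2.12 and Egr2 at 1.59 ± 1.08 followed without overlap. At P12 Mbp, at 75.5 ± 5.60, stood apart in second place. S100b at 34.8 ± 8.62, Prx at 34.3 ± 8.90 and Mal at 33.7 ± 17.5 were not distinguishable from each other, and Sox10 at 8.61 ± 3.14 overlapped both Mal and, below it, Egr2 at 5.12 ± 2.36.

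Since Sox10 marks the lineage, the other members were also given as the log2 ratio to Sox10 in the same library, with a pseudocount of 1, which tests whether the genes changed unequally. Of the 6 ratios, 3 did not overlap between the ages. Their p-values are the smallest that 4 libraries against 4 allow and are not adjusted for the 6 ratios. The ratio of Mal to Sox10 went from -1.61 ± 0.30 at P5 to 1.60 ± 1.05 at P12 (SD, n = 4), a difference of 3.21 (two-sided exact permutation test, p = 0.0286). Mbp to Sox10 went from 3.36 ± 0.19 to 4.60 ± 0.47 (SD, n = 4), a difference of 1.24 (exact permutation p = 0.0286). Egr2 to Sox10 went from -2.81 ± 1.87 to -0.62 ± 0.53 (SD, n = 4), a difference of 2.19 (exact permutation p = 0.0286), which was 1.26 without P5 replicate 4, the library with no Egr2 count.

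For the other ratios the libraries overlapped, with differences of -0.16 for Pmp22 (exact permutation p = 0.60), 0.38 for Prx (p = 0.11) and 0.38 for S100b (p = 0.23). A change of Pmp22 relative to Sox10 was thus not resolved. The choice of reference decides these ratios. Erbb3, a neuregulin receptor that Schwann cells make, was at 773 ± 69.9 normalized counts at P12, and Sox10 at 26.3 ± 9.59 (SD, n = 4). Which cells made Erbb3 here was not tested. Against Erbb3 the differences were 0.93 for Mal (exact permutation p = 0.29), -0.083 for Egr2 (p = 0.91) and -1.04 for Mbp (p = 0.057). They were -2.43 for Pmp22, -1.90 for Prx and -1.90 for S100b (exact permutation p = 0.0286 each).

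**Figure D2:**
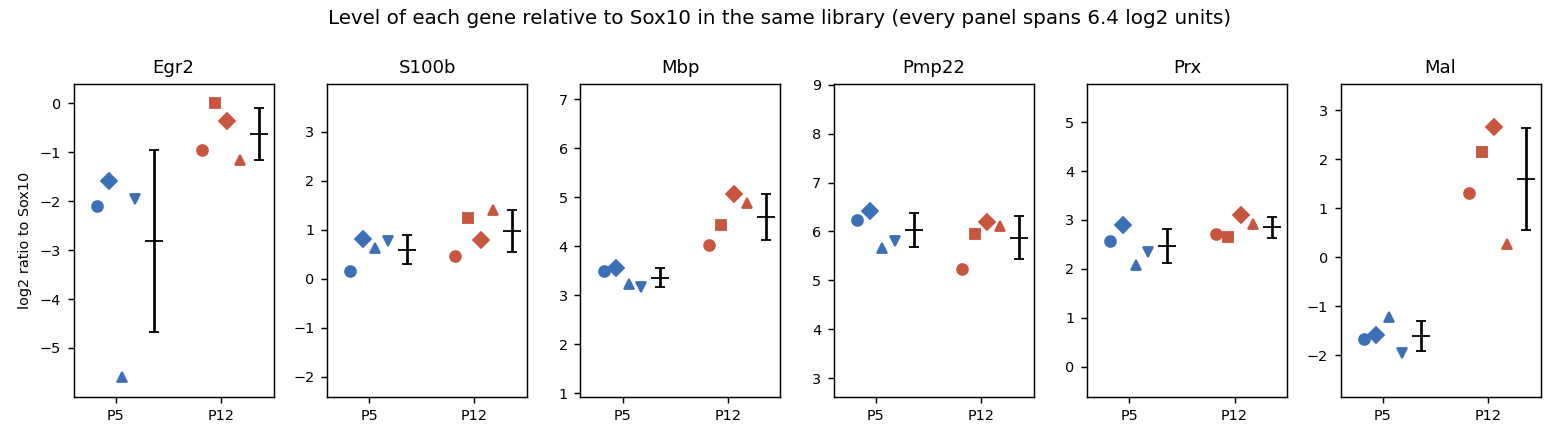
Log2 ratio of each gene to Sox10 in the same library (pseudocount 1), with P5 in blue, P12 in red, a symbol per replicate number as in the plot of counts, and mean ± SD of 4 libraries in black. Egr2, Mbp and Mal are higher relative to Sox10 in every P12 library, and S100b, Pmp22 and Prx overlap between the ages.

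Beyond the members, lists were read of lineage genes (18), peripheral myelin genes (20) and genes linked to myelin lipids (10). The lipid list is not limited to sphingolipid synthesis and includes Aspa and Gltp, both among its rises. Several listed genes are also made by epithelial cells, among them Cd9, Itga6 and Itgb4. Which cells made the listed genes here was not tested. Of these 48 genes, 20 rose, 10 fell, 10 were not called and 8 were too low to test. Over all tested genes 28.8% rose and 28.4% fell. Their median log2FC was 0.36 over the 40 tested, of which 7 passed the filter through the P12 libraries alone, and 0.01 over all genes. Under total count scaling 26 rose and 2 fell, while over all genes the share of calls that were rises went from 50.3% to 79.2%.

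Among the myelin genes 7 rose and 6 fell. Mag, an adhesion protein of the inner myelin membrane, rose from 6.14 ± 5.13 to 26.6 ± 3.78, and Cnp, an enzyme of non-compact myelin, from 241 ± 14.7 to 395 ± 64.5 (SD, n = 4). Gldn, a protein of the nodes along the axon, had a log2FC of 1.18 and Cd9, a tetraspanin that most epithelia also make, of 1.45. Mag and Gldn passed the filter through the P12 libraries alone.

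Cldn19, a claudin of Schwann cells, was too low for the filter, with 0, 0, 1 and 4 counts in P5 replicates 1, 3, 4 and 5 and 38, 36, 18 and 7 in P12 replicates 1 to 4. The myelin genes Pmp2 and Gjb1 stayed near 0, with at most 4 and 3 counts in any library.

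The falls were led by Nfasc, an adhesion gene of axons and glia, from 1582 ± 488 to 52.8 ± 17.8 (SD, n = 4; log2FC -4.93, edgeR adjusted p = 4.9e-08). Drp2, which binds periaxin in Schwann cells, fell from 422 ± 75.1 to 301 ± 20.9 (log2FC -0.49), and Ncmap, another protein of non-compact myelin, had overlapping libraries and an adjusted p just under the threshold (0.0496). Prx, the partner of Drp2, was not called.

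In the lineage list 7 rose and 3 fell. Erbb3 rose from 180, 173, 186 and 315 to 705, 808, 726 and 853 normalized counts (log2FC 1.85, edgeR adjusted p = 4.1e-06). Gfra3, a receptor for artemin, had the largest rise among genes with a mean of at least 20 normalized counts, from 11.9 ± 2.94 to 44.6 ± 12.7 (SD, n = 4). Cdh19, a cadherin of neural crest derivatives, had a log2FC of 2.58. Lgi4 and Adgrg6, a secreted factor and a receptor that myelination needs, had log2FCs of 1.22 and 0.75. The libraries of Lgi4 overlapped between the ages, with 15.1 normalized counts in P12 replicate 4 and 15.7 in P5 replicate 3. Gfra3, Cdh19 and Lgi4 passed the filter through the P12 libraries alone. Itga6, Itgb4 and Tfap2a, also in this list, are made by epithelial cells too; Itga6 was at 18761 ± 1195 at P12.

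Fabp7 and Gfap mark immature and non-myelinating Schwann cells and other glia. Fabp7 fell from 329 ± 70.6 to 40.6 ± 29.4 (SD, n = 4; log2FC -3.06, edgeR adjusted p = 6.7e-05). Gfap fell with a log2FC of -1.41, with overlapping libraries and P5 replicate 4 far above the others, at 353 against 114 to 130. Sox2, L1cam and Scn7a of the lineage list were not called, with log2FCs of 0.25, 0.40 and 0.09. Their edgeR adjusted p-values were 0.59, 0.19 and 0.92. Pou3f1 was not called either, with a log2FC of -1.37 (edgeR adjusted p = 0.0503). Ngfr, the low-affinity neurotrophin receptor, was at 121 ± 60.4 and 101 ± 17.4 (adjusted p = 0.45), and Foxd3, a neural crest factor, had at most 14 counts in any library.

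In the lipid list 6 rose, 1 fell (Cers2, a ceramide synthase, log2FC -0.44), 1 was not called and 2 were too low. Gal3st1, which makes sulfatide from galactosylceramide, rose from 7.44 ± 3.51 to 173 ± 23.7 (SD, n = 4; log2FC 4.52, edgeR adjusted p = 9.8e-08). Gal3st1 passed the filter through the P12 libraries alone, with 3 to 9 counts per P5 library. Ugt8a, the enzyme that makes galactosylceramide, had between 1 and 11 counts, and Fa2h, which hydroxylates the fatty acids of myelin lipids, between 0 and 10.

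**Figure D3:**
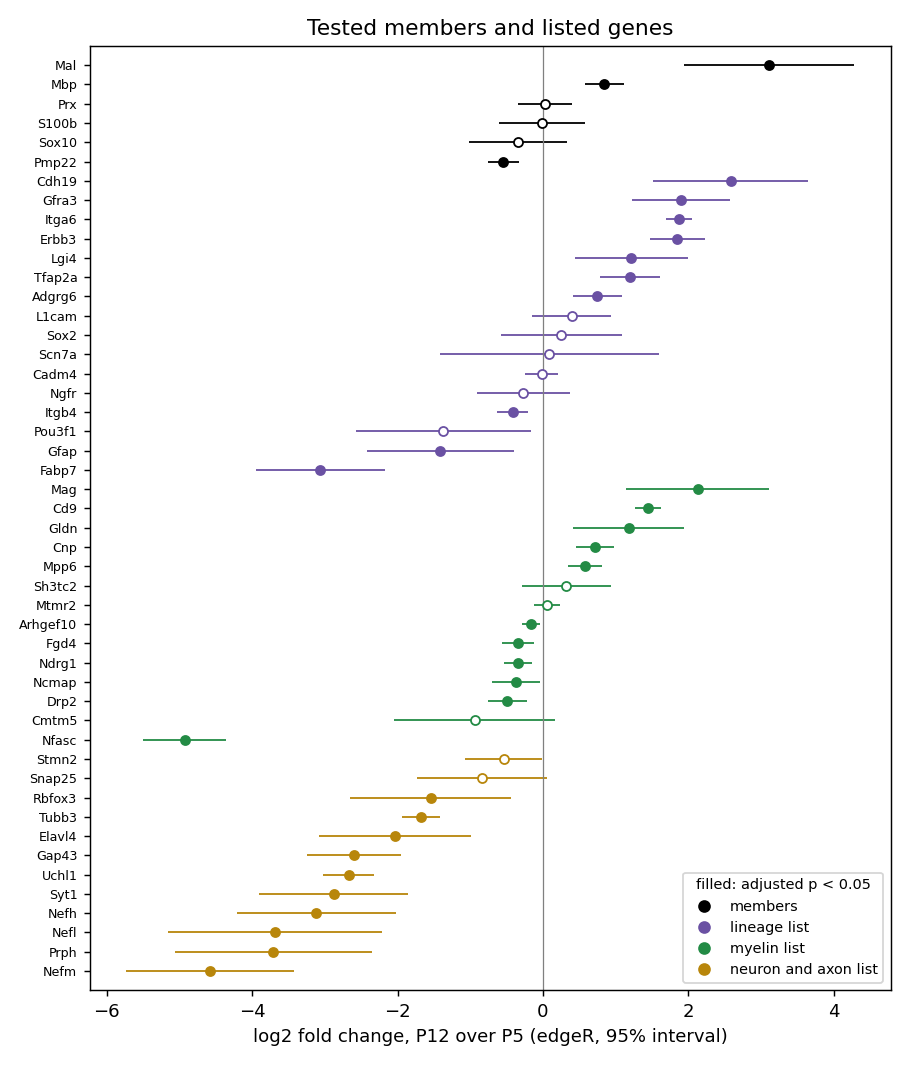
Log2 fold change from P5 to P12 with its 95% interval (edgeR) for tested members (black), lineage genes (purple), myelin genes (green) and neuron or axon genes (yellow), 4 libraries per age; filled points have an adjusted p under 0.05. Mal, Mbp, Mag and Erbb3 lie to the right of 0, Pmp22 and Nfasc to the left, and no neuron or axon gene is called higher.

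Of 12 neuron and axon genes none rose, 10 fell and 2, Stmn2 and Snap25, were not called, where 28.4% of all tested genes fell. Of the 10 that fell, 6 passed the filter through P5 alone, the age at which they were high, and the other 4 were Tubb3, Uchl1, Gap43 and Syt1. The summed normalized count of all 12 genes ranged from 3674 to 5738 in P5 libraries, and from 1348 to 1574 in P12 libraries. Nefm, a neurofilament gene, had 117, 401, 115 and 206 normalized counts at P5, highest in replicate 3, and 10.3, 3.38, 5.56 and 16.1 at P12. Tubb3, a neuronal tubulin, fell from 1700 ± 317 to 529 ± 37.5, and Gap43, a gene of growing axons, from 361 ± 98.1 to 60.5 ± 30.1 (SD, n = 4).

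Other cells also make some of the members, and their markers are given as values. For comparison, 28.8% of all tested genes rose and 28.4% fell. Of 10 oligodendrocyte genes 1 rose (Mobp, 8.17 ± 4.45 to 32.4 ± 14.9), 2 fell, among them Olig1 (89.7 ± 25.9 to 20.2 ± 13.7; SD, n = 4), 3 were not called and 4 were too low. Of the 6 tested oligodendrocyte genes, 2 passed the filter through P12 alone and 2 through P5 alone. Mog and Opalin, which are particular to oligodendrocyte myelin, had at most 9 and 6 counts in any library. Of 10 melanocyte genes 1 rose (Mitf), 3 fell, led by Dct (239 ± 34.6 to 69.4 ± 27.0; SD, n = 4), 1 was not called and 5 were too low, with Tyr and Mlana, genes of pigment cells, at no more than 2 counts in any library.

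Immediate early genes respond within minutes to stimuli and handling, and Egr2 is often counted to them. Of 12 such genes 8 rose, 1 fell (Btg2) and 3 were not called, where 28.8% of all tested genes rose. Junb went from 374 ± 36.1 to 1917 ± 105 (SD, n = 4). Of the relatives of Egr2, Egr1 was not called (log2FC 0.52, edgeR adjusted p = 0.063) and Egr3 rose with a log2FC of 0.30. A part of handling in the change of Egr2 was not tested. Of 12 oral epithelium genes 11 rose and 1 was too low, and 6 of those that rose passed the filter through P12 alone. The sum of all 12 oral epithelium genes ranged from 919 to 1733 normalized counts in P5 libraries. In P12 libraries it ranged from 13397 to 66774, lowest in P12 replicate 4.

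Of 10 endothelial genes 9 rose, led by Esam, and 1 was not called. Of 8 macrophage genes 4 rose, led by Cd68, and 4 were not called. In the fibroblast, odontoblast and osteoblast list 4 rose, led by Col3a1, 4 fell, led by Pdgfra, and 3 were not called. Of 7 cartilage genes 2 rose, led by Acan, 1 fell (Sox9), 2 were not called and 2 were too low, of which 1 had no count. Among the 5 tested cartilage genes, 1 passed the filter through P12 alone. Of 8 skeletal muscle genes 5 fell, led by Myh8, 1 was not called and 2 were too low. Beside these counts, 28.8% of all tested genes rose and 28.4% fell. The part of each of these cell types in the members' changes was not tested.

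Within P12, replicate 4 stood apart for several of these genes. Of the 6 tested members 5 were lowest at P12 in that library, against 34.3% of all tested genes, the exception being S100b. Egr2 was lowest there as well. So were 19 of the 40 tested lineage, myelin and lipid genes, and 10 of the 16 tested lineage genes. Other lists had 11 of 11 tested oral epithelium genes, 9 of 12 immediate early genes and 6 of 8 macrophage genes lowest there. For fibroblast, odontoblast and osteoblast genes it was 9 of 11, for endothelial genes 4 of 10 and for neuron and axon genes 2 of 12. The excess of P12 replicate 4 over the P5 mean was 0.11 of the mean excess of the other P12 libraries for Mal, 0.17 for Egr2, 0.26 for Cdh19 and 0.07 for Lgi4. For Mbp it was 0.79, for Mag 1.17 and for Erbb3 1.20. Gfra3, at 0.49, and Mall, at 0.38, lay between these. The oral keratins Krt13, Krt4 and Krt6b were low in the same library, at 0.02, -0.0039 and 0.15 of the excess elsewhere. The genes thus form a range and not separate groups, and the part of oral mucosa in it was not tested.

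**Figure D4:**
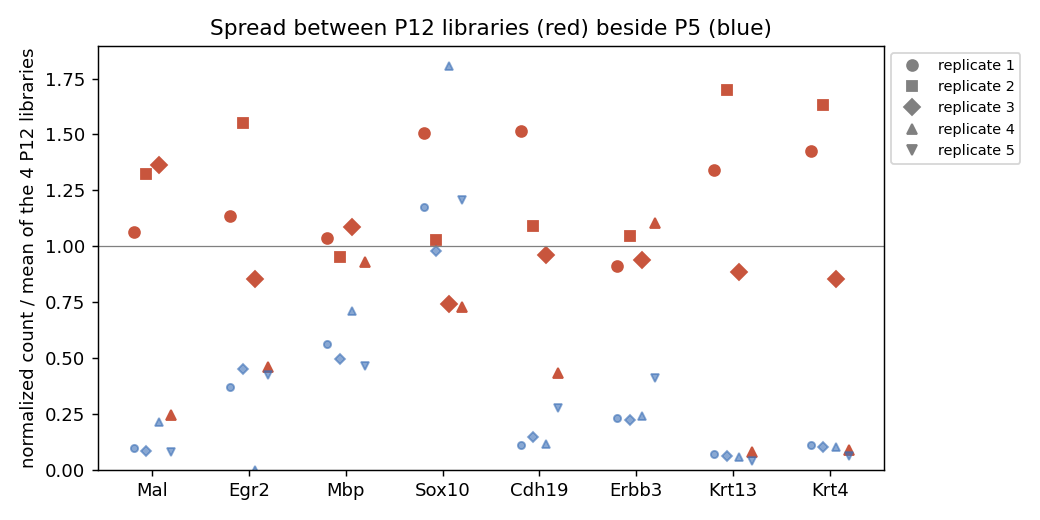
Normalized count in each library divided by the mean of the 4 P12 libraries, with P12 in red, P5 in smaller blue symbols, and a symbol per replicate number. In P12 replicate 4 Mal, Egr2 and Cdh19 lie nearer to the P5 libraries, as Krt13 and Krt4 do, while Mbp and Erbb3 stay with the other P12 libraries.

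Within P5, replicate 4 was the high one. All 6 tested members had their highest P5 value there, against 22.2% of all tested genes. For Pmp22 and Prx the gap was small, at 2457 against 1829 to 2389 and at 203 against 165 to 197. Sox10 reached 47.5 against 25.7 to 31.8 in the other P5 libraries, S100b 73.8 against 34.7 to 55.0, Mbp 451 against 295 to 356 and Mal 19.8 against 7.41 to 9.00. Of the 40 tested lineage, myelin and lipid genes 10 were highest at P5 in that library, which is near the background, and of the 16 tested lineage genes 3 were. Gfap and Mag, at 13.2 against 2.12 to 6.71, were among them. The neuron genes Nefm and Nefl were highest in P5 replicate 3 instead, at 401 and 224. Egr2, with no count in P5 replicate 4, did not follow the other members. Leaving it out gave a log2FC of 0.98 for Mbp, 3.52 for Mal and -0.15 for Sox10.

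For each tested member the 2 genes with the smallest root mean square difference in log2 profile over the 8 libraries, each centred on its own mean, are named as a description. They were Fn3k (0.14) and 5031434O11Rik (0.17) for Sox10, Irgm2 (0.08) and Fnip2 (0.10) for Mbp, Vmac (0.06) and Rin2 (0.07) for Pmp22, Gpx7 (0.10) and Arhgap44 (0.11) for Prx, Osgin1 (0.31) and Alox12 (0.39) for Mal, and Myl6b (0.15) and Gm10093 (0.17) for S100b. The median over all tested genes was between 0.38, for Prx, and 1.64, for Mal. No member was among the nearest genes of another member. Osgin1 and Alox12 were also low in P12 replicate 4, at 25.1 and 71.3 normalized counts against 84.3 to 115 and 234 to 320 in the other P12 libraries.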

How the data were processed

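RNA-seq libraries were made from polyadenylated RNA of pooled first molar enamel organs by Novogene, to which the authors sent the purified RNA. The deposited values are whole-number read counts per gene without normalization, 1 column per library named by its title. The submitters' processing notes name CASAVA and the build mm39, but of 54532 gene identifiers 54495 are in GENCODE M21 for GRCm38 and 53585 have the same start and end there, so GRCm38 is used. The aligner, counter and strand setting are not given in the sources used here. The members and gene lists were chosen with earlier results of these data known.

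R 4.3.3 was used with the package edgeR 4.0.16, in which counts were filtered by filterByExpr, scaled by TMM and tested by glmQLFit and glmQLFTest without a covariate, and p-values received Benjamini-Hochberg adjustment over 16440 genes. The study's methods name DESeq2, run here as an alternative (1.42.0, all genes), with limma-voom (limma 3.58.1). Standard errors are the log2 fold change divided by the square root of F. Single values were compared by two-sided exact permutation over the 70 ways to choose 4 of 8 libraries, 6 ratios with unadjusted p-values. The tests were tried on simulated counts first. Floors of 3 counts (0.136 to 0.181 CPM) and intervals of counts cover counting error only.

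Gene lengths, another deposited column, were used for levels per kilobase. The labels do not tie a replicate number to a shared litter or day, and the fit has no such block. Named genes are the members, in each list at least the called gene with the largest rise and fall among genes with a mean of at least 20 normalized counts, and the 2 genes most like each tested member. The rule allows any other gene of a list, and those were chosen after their values were seen. Promoter windows are RefSeq's (GRCm38.p6), which were present for 5 members. Python 3.11.15, numpy 2.4.6 and pandas 2.3.3 were used for summaries, and matplotlib 3.10.9 for plots. Results for some listed genes, and 1 planned reference for the ratios, are not reported here; the counts over lists include those genes.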

Additional observations from a re-analysis of the deposited data

Results flagged for a closer look

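Each named gene or ratio was checked at each age for 1 library distant from the rest by Dixon's test. Of 186 such checks 15 were positive, and chance, at 1 in 20, gives about 9.3.

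Among the members these were the Mal count of 19.8 in P5 replicate 4 (7.41 to 9.00 in the others) and the ratio of Egr2 to Sox10, -5.60 in P5 replicate 4 (-2.10 to -1.60 in the others).

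Among other genes of glia and nerve, Erbb3 was at 315 in P5 replicate 5 (173 to 186), Gfap at 353 in P5 replicate 4 (114 to 130) and at 134 in P12 replicate 4 (44.0 to 47.3), Gap43 at 105 in P12 replicate 4 (41.1 to 49.1), Gjb1 at 2.24 in P5 replicate 3 (0 in the others) and Opalin at 6.02 in P12 replicate 4 (0 in the others). P12 replicate 4 was also distant for Tfap2a, at 138 (211 to 215), Gal3st1, at 209 (160 to 163), Dct, at 109 (50.6 to 60.2), and Sox9, at 575 (420 to 434). The remaining ones were Mlana at 1.69 in P12 replicate 2 (0 in the others), Irgm2 at 98.7 in P12 replicate 2 (110 to 112) and Cd68 at 132 in P5 replicate 1 (95.3 to 99.5). All values are normalized counts except the ratio.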

How the results depend on the processing

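Mal kept its rise and its call in all 19 alternatives that gave it a value, with log2 fold changes of 2.60 to 3.52 and adjusted p of at most 0.012; asking for 10 counts or more per library removed it. Mbp kept its rise in all 20 (0.76 to 1.22) and lost its call only where calls also needed a change of 1 log2 unit or more (0.85). Pmp22 lost its call there (-0.55) and under total count scaling (-0.17). Sox10, Prx and S100b were called in none.

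The number of genes higher and lower at P12 was 4735 and 4676, under total count scaling 8885 and 2330, and for changes of 1 log2 unit or more 1864 and 1677. Of the members, 1 was higher with at least 10 counts in every library and 1 with a log2 fold change of at least 1, and 0 were lower with the latter or under total count scaling. Of the lineage, myelin and lipid lists, 13 were higher with at least 10 counts in every library, 12 higher and 3 lower with a log2 fold change of at least 1, 2 lower under total count scaling and 6 lower at an adjusted p under 0.01. With at least 10 counts in every library, which 6 of the 12 reach, 4 neuron and axon genes were lower.

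With Erbb3 in place of Sox10 as reference, the differences in log2 ratio were -1.04 for Mbp, -2.43 for Pmp22, -1.90 for Prx, 0.93 for Mal, -0.083 for Egr2 and -1.90 for S100b.

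With 1 library left out at a time, there were 4309 to 4938 genes higher and 4364 to 5092 lower, 2 to 3 members higher, the third being Egr2, and 1 lower, 19 to 22 listed genes higher and 8 to 10 lower, and 0 higher and 9 to 11 lower neuron and axon genes. The log2 fold changes were -0.63 to -0.15 for Sox10, 0.76 to 0.98 for Mbp, -0.64 to -0.50 for Pmp22, -0.17 to 0.13 for Prx, 2.93 to 3.52 for Mal and -0.17 to 0.18 for S100b. The ratios to Sox10 changed by 1.08 to 1.43 for Mbp, -0.28 to 0.06 for Pmp22, 0.25 to 0.52 for Prx, 2.86 to 3.65 for Mal, 1.26 to 2.60 for Egr2 and 0.23 to 0.55 for S100b. Egr2 itself differed by 1.05 to 2.11.

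The replicate number as a block over 6 libraries, which the numbers do not justify, gave log2 fold changes of 2.60 for Mal, 0.80 for Mbp and -0.70 for Pmp22, all still called, and changed no other member's call. Deviations of libraries with the same number correlated at 0.04, 0.01 and -0.04, and none of the 3 P5 libraries correlated best with its own number. Leaving out both P5 replicate 5 and P12 replicate 4 was added after the data were seen and gave 3.27, 0.80 and -0.59. Counts per library were 0 to 32 for Egr2, 7 to 15 for Mal at P5 and 19 to 54 for Sox10, which limits their precision.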
